A study of Drosophila melanogaster with 6 samples.

Results

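The genes salm, salr, bs, kn, brk and Dad, 6 of the 13922 protein-coding genes annotated on the chromosome arms with peaks, were taken by symbol from the Release 6 gene table because they encode regulators of wing veins or targets and regulators of Dpp signalling. They were examined in wing imaginal discs of Drosophila melanogaster, the larval tissue that forms the adult wing and notum. H3K27me3, trimethylated lysine 27 of histone H3, was mapped by CUT&RUN, in which an antibody brings a nuclease to the marked chromatin and the released DNA is sequenced. The peaks come from discs in which a UASt-H3 K27R transgene, the control of the series, supplied histone H3 with arginine in place of lysine 27. The other genotype carried UASt-H3 K27M, with methionine at that position, and only the authors' list of genes upregulated in it was used. Both genotypes carried Act5C-GAL4, a broadly active driver, and alphaTub84B-GAL80ts, a temperature-sensitive repressor of it. In both, larvae were kept at 25 °C and moved to 32 °C at 44 h after egg laying, the transgene was on for 72 h, and crawling larvae were taken at 116 to 119 h. The labels name no change to the endogenous H3 genes, so the transgenic histone is read here as present beside them. Each genotype had 2 H3K27me3 libraries of 20 discs and 1 IgG library. The labels attach a single peak list to the pair of H3K27R libraries, so no value below has a replicate error or a read depth, and all are given as descriptions without a test.

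Dpp, a BMP ligand secreted from a stripe along the anterior-posterior compartment boundary, binds receptors that phosphorylate the Smad protein Mad. Mad, with Medea and Schnurri, silences brk in the centre of the disc. Brk is a repressor that elsewhere keeps Dpp targets such as salm, salr and Dad off, so these targets are active in a central territory and brk is active at the flanks. The spalt genes salm and salr encode zinc finger factors that position veins, kn encodes the COE-family factor Collier of the central intervein, bs encodes the fly serum response factor needed for intervein fate, and Dad encodes an inhibitory Smad. H3K27me3 is written by Polycomb repressive complex 2 and marks silenced developmental genes. A disc mixes cells in which each of these genes is on with cells in which it is off, so a peak from whole discs cannot tell fewer marked cells from less mark per cell.

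The 6 genes divided into 4 that lay under broad H3K27me3 domains and 2 with little or no peak coverage. The genes salr, salm, kn and bs were covered by peaks over 100%, 97.6%, 94.0% and 68.1% of their spans. Dad, the inhibitory Smad gene, was covered over 1.68%, and brk, the repressor gene, over 0%. With any overlap counted, 5 of the 6 genes had a peak, where 7.22% of all protein-coding genes did. The 6 spans were 3.19 to 34.4 kb, against a median of 2163 bp over all protein-coding genes, and a longer span meets a peak more easily. The neighbours salm and salr lay in the same domain, so they are not separate observations. With at least 50% of the span covered the count was 4, against 4.04% of all protein-coding genes. It was also 4 with a peak of −log10 q-value of at least 10, against 3.43%, and 4 with either end of the span inside a peak, against 4.58%. The median covered share was 81.1% over the 6 genes and 0% over all protein-coding genes, and the median highest fold enrichment was 5.33 over the 5 genes with a peak and 3.14 over the 1005 protein-coding genes with one. Fold enrichment and q-value are the authors' values for a whole peak, over the peak caller's background, and they do not resolve positions inside a peak.

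**Figure D1:**
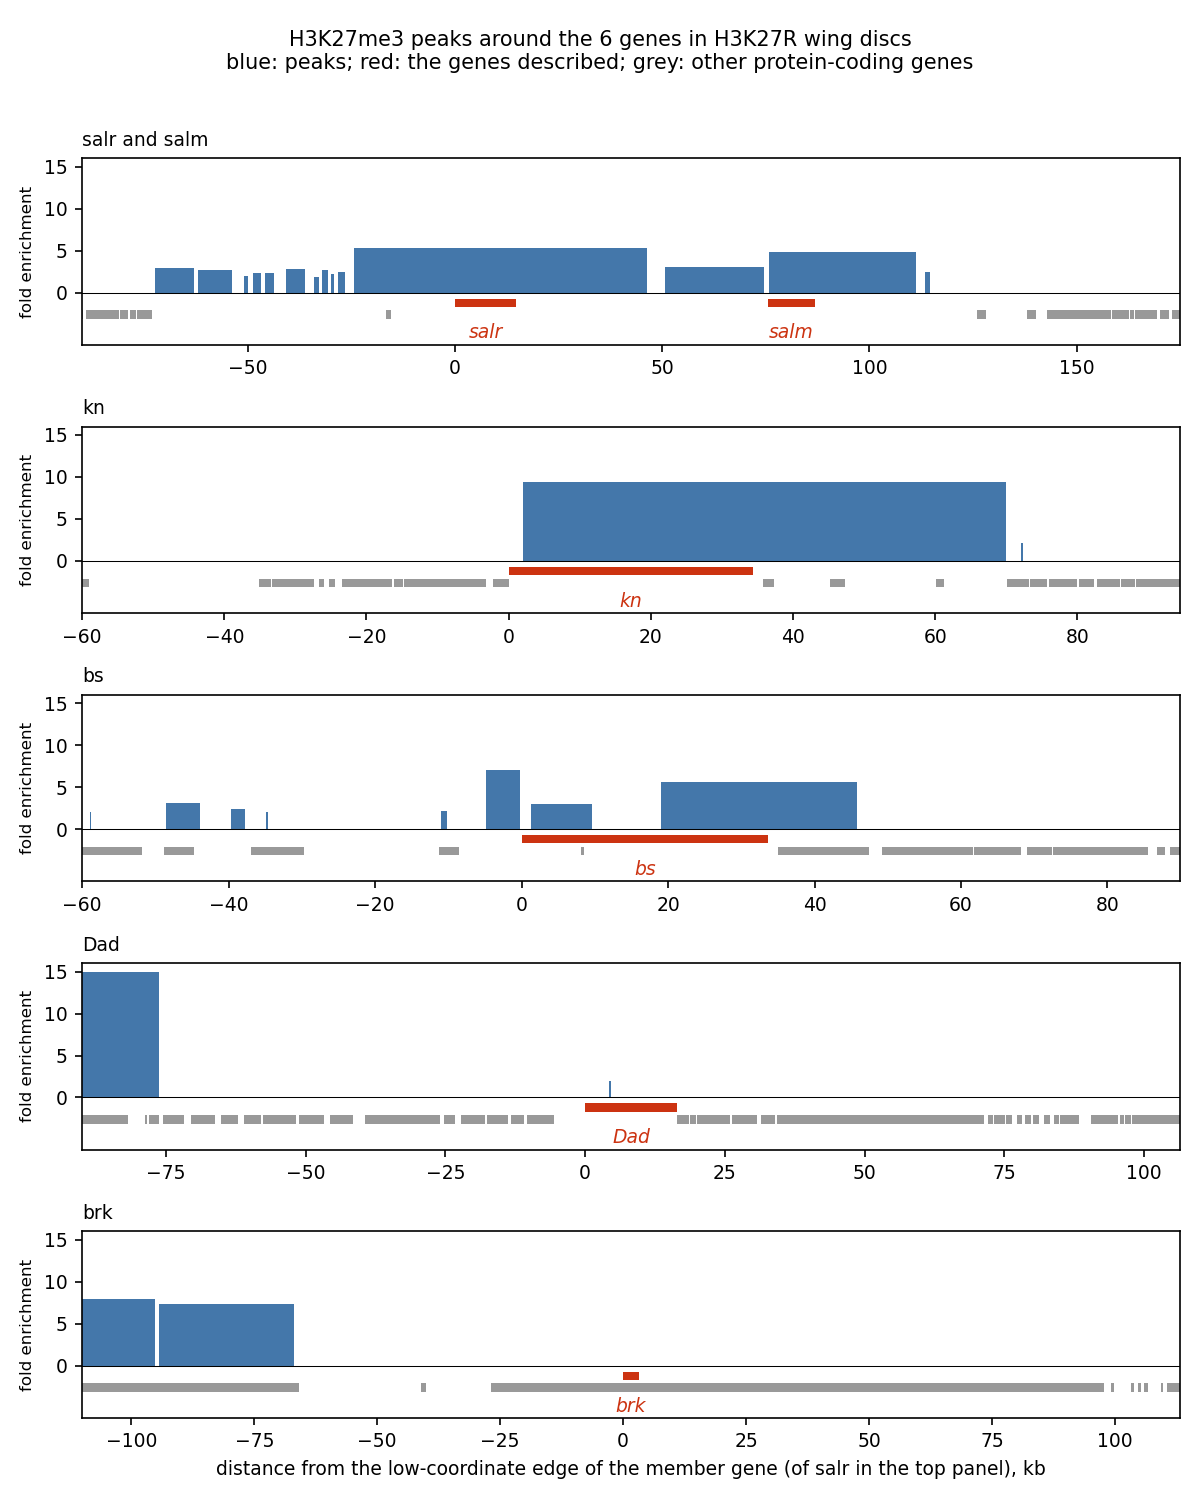
H3K27me3 peaks (blue, height is the authors' fold enrichment per peak) around the 6 genes (red) and other protein-coding genes (grey), with distance in kb from the low-coordinate edge of the gene, or of salr in the top panel, on the x axis. The spalt genes and kn sit under wide peaks, bs has an interior gap of 9.40 kb, Dad holds 1 peak of 276 bp, and brk has none.

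Members of the spalt pair are the most widely covered of the 6. The gene salr (locus tag Dmel_CG4881, 2L 11358873 to 11373636, 14.8 kb) lay entirely inside 1 peak of 70.8 kb with a fold enrichment of 5.33 and a −log10 q-value of 24.7. This peak ran 24.4 kb beyond the left edge of salr and 31.6 kb beyond its right edge, left meaning the lower coordinate because the gene table gives no strand. The gene salm (Dmel_CG6464, 2L 11434311 to 11445614, 11.3 kb) met 1 peak of 35.5 kb, with a fold enrichment of 4.83 and a −log10 q-value of 20.8. The only stretch of salm without a peak was its leftmost 275 bp. Another peak of 23.9 kb, at 3.07-fold, filled most of the space between the paralogs and ended 809 bp short of salm. Of the 60.7 kb between the genes, 91.5% was covered.

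With gaps of up to 5 kb bridged, these peaks belonged to a single domain of 187.0 kb (2L 11286475 to 11473509), which ranked 4 by width among the 748 domains but 144 by its highest fold enrichment. Without bridging, the widths are those of the single peaks over salr (70.8 kb) and salm (35.5 kb). It held 14 peaks that covered 87.9% of its width, and its 3 widest peaks held 79.2% of the covered bases. To the left of the salr peak lay 10 peaks of 0.666 to 9.49 kb, with fold enrichments of 1.91 to 2.90, below those of the peaks over salr and salm. In all, 12 of the 14 peaks had a −log10 q-value under 10, and the exceptions were the peaks over salr and over salm. The domain contained 1 other protein-coding gene, CG14926, covered over 100%, and 8 long non-coding RNA genes, each covered over at least 61.4%. The domain ended 769 bp from Osi21 on the left and 11.2 kb from CG43355 on the right, and neither of these had a peak. The spalt genes also stood in gene-poor surroundings. Only 1 other protein-coding gene lay within 50 kb of salr and 2 within 50 kb of salm, compared with a median of 17 over all protein-coding genes.

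The gene kn had the strongest peak of the 6, with its left edge close to that of the gene. Its span (Dmel_CG10197, 2R 14772650 to 14807061, 34.4 kb) met a peak of 67.9 kb (2R 14774710 to 14842643) with a fold enrichment of 9.41 and a −log10 q-value of 63.8. Among the 1005 protein-coding genes with a peak, 79.6% had a highest fold enrichment at or below that of kn. The peak began 2060 bp inside the left edge of kn. The next gene on that side, BEAF-32, ends 20 bp from kn and had no peak. On the right the peak ran 35.6 kb past kn, and 47.6% of its width lay inside the gene. There it covered hui, Pgm2b and CG10205 over 100%, and it stopped short of NaPi-T, whose 10.2% coverage came from a separate peak of 322 bp at 2.18-fold. The merged domain was 70.3 kb wide, rank 47 of 748 by width and 76 by highest fold enrichment. Unlike the spalt genes, kn had 22 other protein-coding genes within 50 kb, more than 74.3% of protein-coding genes have.

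The intervein gene bs was covered in separate blocks. Its span (Dmel_CG3411, 2R 24342861 to 24376473, 33.6 kb) held a peak of 8.35 kb at 2.97-fold in its left part and met a peak of 26.7 kb at 5.57-fold on its right. When the −log10 q-value had to reach 10, the left peak is lost and the covered share is 43.3%. The bases between them, 9.40 kb or 28.0% of the span, had no peak. With the span split into 10 equal bins from left to right, bins 4 and 5 were covered over 0% and bins 7 to 10 over 100%. The highest peak of the neighbourhood was not in the gene: a 4.71 kb peak at 7.08-fold, with a −log10 q-value of 63.9, ended 155 bp before its left edge. That fold enrichment was above those of the peaks over bs, salr and salm and below that of the kn peak. The gap left bs in 2 domains, 14.5 kb wide (rank 191 of 748) and 26.7 kb wide (rank 127). The antisense RNA gene asRNA:bsAS spans the gap and was covered over 48.4%. The right domain extended 12.1 kb past bs and covered CG13578 over 100% and mAChR-A, a muscarinic acetylcholine receptor gene, over 85.6%. On the left, slbo, a C/EBP transcription factor gene, was covered over 32.4% by a peak of 2.15-fold outside the domain.

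**Figure D2:**
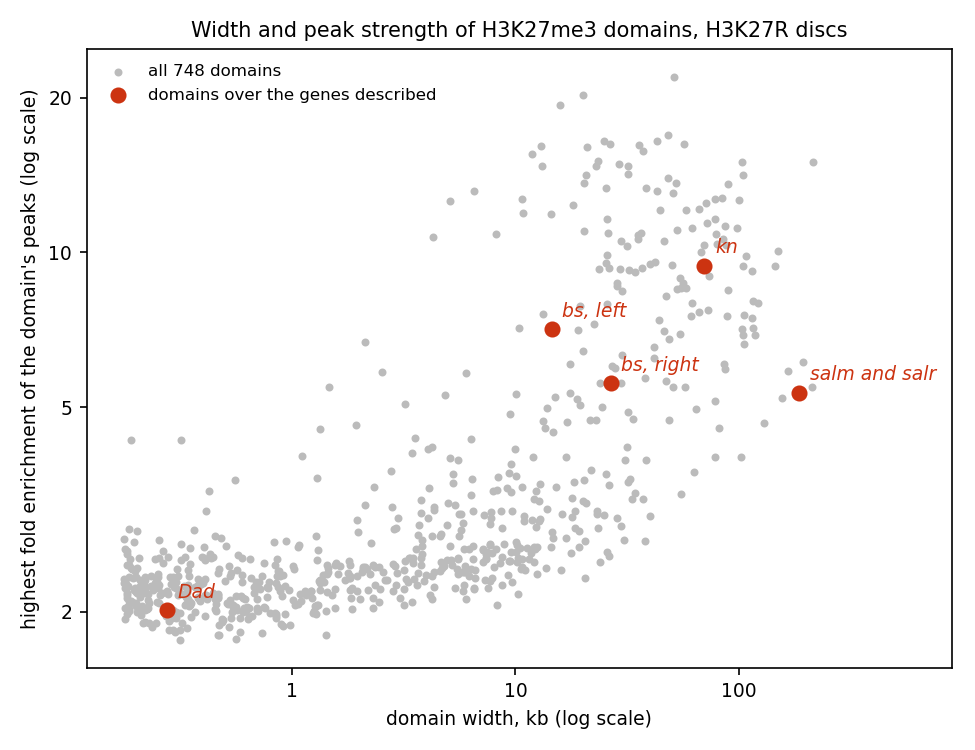
Width in kb (x axis, log scale) and highest fold enrichment (y axis, log scale) of all 748 H3K27me3 domains in H3K27R discs (grey points), with the domains over the 6 genes in red. The domain over salm and salr is among the widest at 187.0 kb but reaches 5.33-fold, the kn domain reaches 9.41-fold at 70.3 kb, bs has 2 domains, and the Dad peak lies among the small, weak ones.

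Dad and brk, which act inside the Dpp pathway itself, had 1 small peak and no peak. The list holds only peaks past the authors' cutoff, so a span without one is not a measurement of no H3K27me3. The span of Dad (Dmel_CG5201, 3R 17054007 to 17070408, 16.4 kb) held a single peak of 276 bp, 4284 bp from its left edge, with a fold enrichment of 2.01 and a −log10 q-value of 1.48. Of all 1709 peaks, 10.5% had a lower fold enrichment, 14.0% were narrower and 6.55% had a lower −log10 q-value. So Dad counts as a gene with a peak, but the peak is close to the lowest values in the list, where the smallest −log10 q-value is 1.05. When the −log10 q-value had to reach 10, or with peaks at the median fold enrichment of the list (2.39) or higher, Dad had none. The neighbours Patr-1 and Ns1 had no peak. The nearest other peaks were 76.2 kb to the left, where the domain over the Hox genes abd-A and Abd-B ends (215.3 kb wide, 15.0-fold), and 116.1 kb to the right.

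No peak overlapped brk (Dmel_CG9653, X 7307939 to 7311132, 3.19 kb) or the 50 kb on each side of it. The nearest peak lay 67.0 kb to the left, was 27.4 kb wide at 7.41-fold, and belonged to a 62.1 kb domain over Cph, a zinc finger gene. On the right the nearest was 185.4 kb away, at the edge of the 167.2 kb domain over ct. Among the 12917 protein-coding genes without a peak, the median distance to one was 75.9 kb, and 46.0% lay closer to a peak than brk did. The distance of brk was therefore near the middle of that range. The span of CG1677 contains brk in the annotation, and it had no peak along its whole length, and neither did the flanking genes unc-119 and Atg5.

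Widening the window kept the 4 covered genes apart from Dad and brk up to 50 kb on each side. In windows with 50 kb added on each side, the covered share was 86.4% for salr, 73.2% for salm, 50.8% for kn and 35.6% for bs, compared with 0.237% for Dad and 0% for brk. The mean over all protein-coding genes was 6.27% and the 90th percentile 24.5%. For kn the share was 84.1% with 5 kb added and 70.3% with 20 kb, whereas for salr it was 100% at both sizes. With 100 kb added, the windows of brk and Dad reached the domains over Cph and over abd-A and Abd-B, and their shares were 15.8% and 11.1%, against a mean of 7.11%. The share of bs, 22.0%, was then below the 90th percentile of 24.7%.

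**Figure D3:**
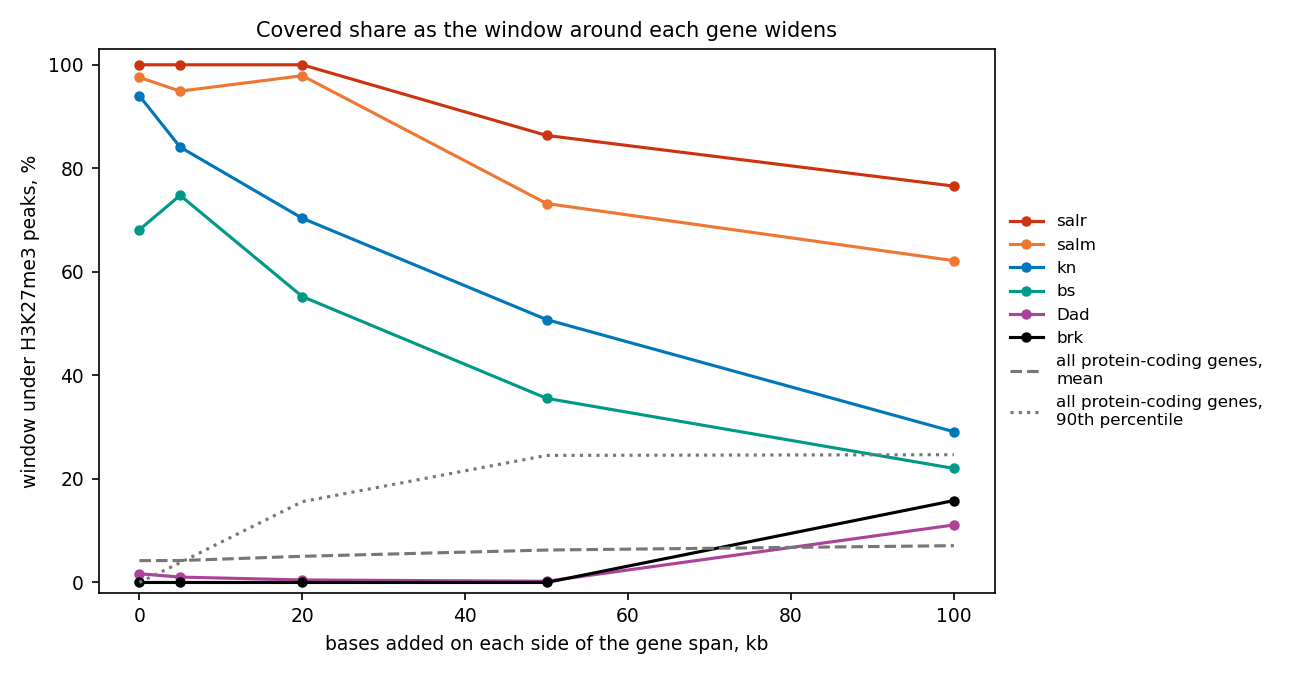
Share of the window under H3K27me3 peaks (y axis, %) for each of the 6 genes as bases are added on each side of its span (x axis, kb), with the mean (dashed) and 90th percentile (dotted) over all protein-coding genes. With 50 kb added, salr, salm, kn and bs range from 86.4% to 35.6%, while Dad and brk are at or below 0.237%.

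Other genes of these pathways were taken from 3 lists of wing genes that were drawn up from their known roles, with earlier results of these data known. Differences between the lists were not tested. Spans in the lists ran from 978 bp (E(spl)mbeta-HLH) to 72792 bp (bi), against a median of 2163 bp over all protein-coding genes. The shares below are not matched for span length. In the list of anterior-posterior patterning genes, the 12 genes other than salm, salr and kn were all covered over at least 50% of their spans (4.04% over all protein-coding genes), with a median of 97.9%. They included other Dpp targets, bi (97.4%, 5.22-fold), which encodes the T-box factor Omb, and vg (100%, 4.90-fold), the wing selector gene. They also included the Hedgehog-side genes hh (98.4%, 9.27-fold), ptc (86.0%, 4.19-fold), ci (86.3%, 4.55-fold) and en (100%, 9.19-fold), and the vein genes kni (100%, 8.52-fold) and knrl (88.8%, 6.06-fold). The Iroquois genes ara (100%), caup (79.5%) and mirr (100%) completed it together with inv (83.0%). With the 3 members, these 15 genes lay in 11 domains, so neighbouring genes are not separate observations.

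Of the 17 Dpp pathway components other than brk and Dad, 12 had no peak, 5 (29.4%) had one and 2 (11.8%) were covered over at least 50%. Without matching for span length, these shares were above the 7.22% and 4.04% of all protein-coding genes and below those of the anterior-posterior list. The signal transducers Mad and Medea (Med), the cofactor shn, the type II receptor genes put and wit, the type I receptor gene sax and the BMP ligand gene gbb had none, nor did the glypican genes dally and dlp, tok, cv or Smurf, which encodes a ubiquitin ligase that acts on Mad. Among these 12 genes, wit lay 0.666 kb from a peak, and the others from 11.0 kb (dlp) to 246.0 kb (shn). The receptor gene tkv was covered over 12.5% at 2.34-fold, and sog, which encodes an extracellular BMP antagonist, over 16.6% at 2.55-fold. The gene magu, which encodes the secreted Dpp regulator Pentagone, was covered over 46.1% at 2.25-fold. The components covered over at least 50% were dpp itself (100%, 7.67-fold) and cv-2, which encodes a BMP-binding protein of the crossveins (67.4%, 4.995-fold). Dad, at 1.68%, was the lowest of the 6 components with any peak, and brk was among the 13 that had none.

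**Figure D4:**
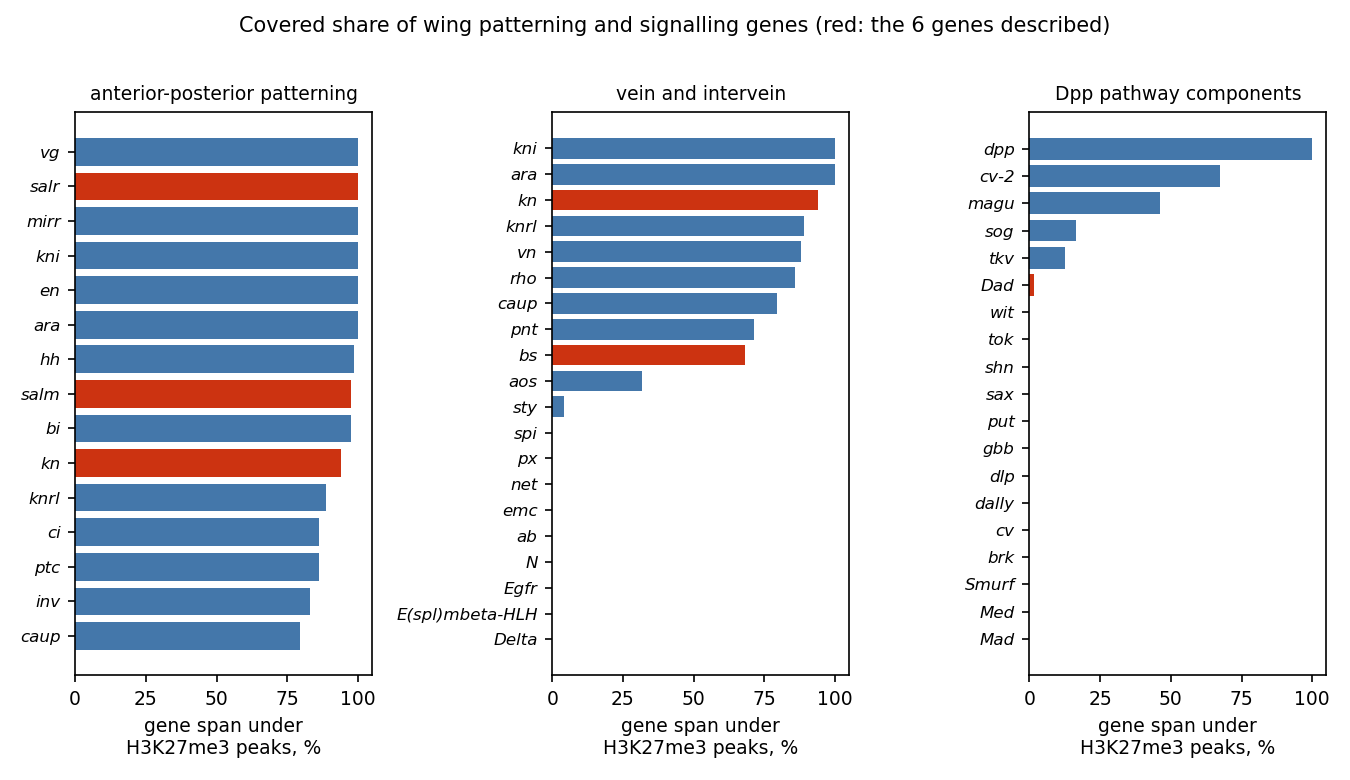
Share of each gene's span under H3K27me3 peaks (x axis, %) for 3 lists of wing genes, with the 6 genes described in red. Every anterior-posterior patterning gene is above 50%, whereas 13 of the 19 Dpp pathway components, brk among them, are at 0%. The lists were drawn up with earlier results of these data known, and differences between them were not tested.

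Of the 18 vein and intervein genes other than bs and kn, 9 (50%) had a peak and 7 (38.9%) were covered over at least 50%. Over all protein-coding genes these shares were 7.22% and 4.04%. Among the 7, kni, knrl, ara and caup are also in the anterior-posterior list and were already counted there. On the side of the EGF receptor pathway, which promotes vein fate, the ligand-processing protease gene rho (86.0%, 5.48-fold), the ligand gene vn (88.0%, 5.13-fold) and the effector gene pnt (71.3%, 10.5-fold) were covered. The receptor gene Egfr and the ligand gene spi had no peak over their spans, and the nearest lay 0.896 kb and 101.8 kb away. The feedback inhibitor genes aos (31.9%, 2.30-fold) and sty (4.10%, 2.66-fold) had weak ones. The Notch pathway genes N, Delta and E(spl)mbeta-HLH had none, nor did the vein-pattern genes net, px, emc and ab. The nearest peak lay 1.18 kb from emc, 7.25 kb from E(spl)mbeta-HLH, 15.5 kb from Delta and 25.4 kb from ab. It lay 69.7 kb from net, 99.0 kb from N and 196.1 kb from px. The covered share of bs, 68.1%, was the lowest of the 9 genes in this list covered over at least 50%. Over the 3 lists, 43 different genes were not members, of which 22 (51.2%) had a peak and 17 (39.5%) were covered over at least 50%. The shares over all protein-coding genes were again 7.22% and 4.04%. All 12 of the anterior-posterior genes other than members are among the 17.

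None of the 6 genes was among those the authors listed as upregulated with H3K27M, a list that held 148 genes and 0.941% of all protein-coding genes. At that share, 0.0565 of 6 genes would be listed, so the absence of all 6 is not a result about them. None of the other 43 genes of the 3 lists was listed either. For salm and salr the nearest listed gene was CG31705, 77.4 kb from salm and without a peak. For brk it was lncRNA:CR46494 at 213.5 kb, for bs ppk29 at 285.7 kb, for Dad bard at 1010.6 kb and for kn asRNA:CR46471 at 1087.8 kb. The list gives no expression values and no level of H3K27me3 in H3K27M discs was analysed here, so how the domains over salm, salr, kn and bs respond to the oncohistone is not described.

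Each set of marker genes for the disc and its associated cells held genes with and without a peak. Of the wing disc genes, vg, nub and Dll were covered over 100%, ap over 60.8% and sd over 0%. Of 5 adult muscle precursor genes, htl (100%), zfh1 (99.3%) and twi (51.1%) had peaks, and stumps and Him had none. Of 3 tracheal genes, trh (100%) and vvl (80.0%) had peaks and btl had none. Peaks of a repressive mark are not a measure of expression, so the list does not test the tissue label, and the part of other cell types in the coverage of the 6 genes was not tested.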

How the data were processed

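H3K27me3 was mapped by CUT&RUN with barcoded spike-in nucleosomes diluted 1:100, per the labels' protocols. Per the submitters' processing notes, Bowtie2 and MACS2 were used with dm6. No version, peak cutoff or background library is given there or in the labels. The authors deposited 1 headerless peak list with a fold enrichment (ratio over background), a −log10 q-value and a score per peak; the score was not used. The deposited list of upregulated genes holds intervals only, with no account in the labels of how they were selected; all 148 equalled a gene span. Depth is unknown, and arithmetic on intervals was tested on simulated data.

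Genes came from a RefSeq table of Release 6, the assembly dm6 names, matched by symbol (the Dl gene as Delta). Coordinates are 1-based. Covered share is the part of a gene span under peaks, and peaks separated by at most 5000 bp were joined into domains. The genes named are the 6 members, the genes in and beside their domains, the nearest listed genes and the 3 wing lists. Members and lists were chosen with earlier results of these data known, so no set was tested. Promoter windows and motifs were planned but not analysed here, since the gene table used holds neither strand nor sequence. Python 3.11.15, pandas 2.3.3 and matplotlib 3.10.9 were used.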

Additional observations from a re-analysis of the deposited data

How the results depend on the processing

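No paired analysis was possible because the peak list is common to the pair of libraries, which also means that leaving out a replicate could not be run. Promoter windows were not counted, since gene strands were not at hand; either end of the span was used instead, an alternative chosen after seeing the data. Of 46 recomputed values, 21 are given below as moved, all of them widths that changed or covered shares that left the exact binomial 95% interval of their covered bases. That interval treats neighbouring bases as independent, so it only marks changes here and measures no spread between samples. The count of genes over a peak was 5 of 6, and 4 under all 3 alternatives, in each of which Dad no longer counted. These 3 changed counts are not among the 21 values given as moved. The count on the upregulated list was 0 under both settings. The domain width of the spalt genes depends most on merging. With gaps of up to 0 or 1000 bp, or with only the peaks whose −log10 q-value reached 10, the width was 35.5 kb for salm and 70.8 kb for salr instead of 187.0 kb; under the same 3 settings it was 67.9 kb for kn instead of 70.3 kb. The domains over bs summed to 41.2 kb, and to 35.0 kb with gaps of up to 0 or 1000 bp, 56.8 kb with 10000 bp and 26.7 kb with the stronger peaks. With these, the covered share of bs was 43.3%, and Dad had no peak (0%, 0 kb). It also had none (0%) when peaks below the median fold enrichment were left out. Adding 5000 bp on each side gave 94.9% for salm, 74.8% for bs, 84.1% for kn and 1.05% for Dad. These follow from which peaks and bases each setting keeps. The values of brk were 0 under each of these settings; with 100 kb added on each side, its window was covered over 15.8%.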
